A study of Mus musculus with 14 samples.

Results

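The Hedgehog pathway genes described here are the ligands Shh, Ihh and Dhh, the receptor Ptch1, the signal transducer Smo, the ligand-binding antagonist Hhip and the transcription factors Gli1, Gli2 and Gli3. They were listed by symbol, with earlier results of these data known, and make up 9 of the 24054 genes in the tables. All 9 were followed in 14 mouse low-input RNA sequencing libraries in 6 groups. The study asked how the transcription factor Foxa2 acts when embryonic stem cells form endoderm.

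The d0con and d3con libraries carry Foxa2-Venus-KO over a wild-type allele, an allele in which a histone-linked Venus reporter takes the place of the Foxa2 coding region. In d0ko and d3ko both alleles are Foxa2-Venus-KO. All 4 groups come from the IDG3.2 embryonic stem cell background. The d0con and d0ko groups (n = 2 libraries each) are day 0 stem cells grown on fibroblast feeders without LIF, with the red-fluorescent feeders removed by sorting. The d3con and d3ko groups (n = 3 each) had 3 days with 12 ng/ml Activin A on feeder cells that secrete Wnt3a, and Venus-positive cells were sorted. Each genotype is represented by 2 clones, and replicates 1 and 3 of d3con and of d3ko are the same clone. The d2-FVFn and d2-FVFp groups (n = 2 each) come from another line, T119, which carries a lentiviral doxycycline-inducible Foxa2-Venus fusion and a homozygous Sox17-Cherry reporter. Both of these groups received 40 ng/ml doxycycline for 48 h in LIF and serum without feeders, and were separated only by sorting Venus-negative (d2-FVFn) from Venus-positive (d2-FVFp) cells. The p-values measure the spread between these libraries, which may be clonal or technical.

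Hedgehog ligands are secreted, lipid-modified proteins. Ptch1 keeps the membrane protein Smo inactive until a ligand binds Ptch1, after which Smo acts at the primary cilium and shifts the Gli factors from repressor to activator forms. Gli1 acts as an activator and is itself a standard target of the pathway, Gli2 provides much of the primary activator and Gli3 much of the repressor. Ptch1 and Hhip are also induced by the pathway, and Hhip binds ligand and so limits it. In the early embryo Shh is made by the notochord, floor plate and gut endoderm, tissues in which Foxa2 is also expressed, and Ihh is made by visceral endoderm.

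RefSeq promoter sequence of GRCm38.p6 was matched for 7 of the 9 genes, and Shh and Gli1 were not matched. The 250 bases before a listed start of Smo and of Ptch1 are shown. These genes encode the signal transducer and the receptor that controls it, and behaved differently below. Capitals mark the GC box GGGCGG on either strand. The Smo window lies on the plus strand at chr6:29735247-29735496 and the Ptch1 window on the minus strand at chr13:63565736-63565985. The Smo window adjoins the outer end of its gene. The Ptch1 window lies inside the span of its gene (63508328 to 63573460), so its start is not the outermost.
Smo: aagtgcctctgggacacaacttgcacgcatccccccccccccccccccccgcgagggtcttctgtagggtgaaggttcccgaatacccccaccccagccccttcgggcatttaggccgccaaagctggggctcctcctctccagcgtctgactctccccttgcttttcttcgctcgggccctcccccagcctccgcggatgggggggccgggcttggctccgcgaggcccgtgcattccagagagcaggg
Ptch1: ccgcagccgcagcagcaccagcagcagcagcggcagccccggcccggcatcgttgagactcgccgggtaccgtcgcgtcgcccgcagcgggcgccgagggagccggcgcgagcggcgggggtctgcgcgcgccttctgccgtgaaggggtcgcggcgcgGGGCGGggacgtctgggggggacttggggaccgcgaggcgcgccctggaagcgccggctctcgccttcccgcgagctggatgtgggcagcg
These windows held 68.4% and 78.4% G or C, against a median of 52.4% over 32851 windows. With the 50 bases after the start included, the GC box was found in 6 of the 7 windows searched (Ihh, Dhh, Ptch1, Gli2, Gli3 and Hhip) and not in that of Smo, and 35.7% of all windows hold it. The forkhead-type sequences TGTTTAC and TATTTAC, searched on both strands, were in none of the 7 windows and in 3.65% and 3.04% of all windows. The Gli-type sequence GACCACCC was likewise in none of the 7 and in 0.807% of all windows. The shorter forkhead core TGTTT, which TGTTTAC contains, was in the Hhip window and in 50.5% of all windows. An absent match says only that these letters are not in these windows.

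Library totals ran from 14142788 to 27278237 expected counts. Foxa2, the targeted gene, lay between 34.81 and 58.64 TPM (a transcript level scaled for gene length and library total) in d3con and between 0.11 and 0.19 TPM in d3ko. It lay between 159.81 and 168.57 TPM in d2-FVFp and between 2.01 and 2.99 TPM in d2-FVFn, where transgene and endogenous transcripts are counted together. The summed level of 8 pluripotency markers was 566 to 990 TPM in d3con. It was 15550, 2690 and 17520 TPM in d3ko replicates 1, 2 and 3. Replicates 1 and 3 were thus near the 13896 to 15781 TPM of the day 0 libraries. Dppa5a made up most of the sums at day 0 and in d3ko, with means of 12342 TPM in d0con, 13053 TPM in d0ko and 10536 TPM in d3ko. The d3con libraries held 860 to 1085 TPM of 8 definitive endoderm markers and the d3ko libraries 45.6 to 256 TPM. In d2-FVFp these endoderm markers summed to 20.9 to 29.3 TPM, with 3 of 8 under a mean of 1 TPM. In d2-FVFn they summed to 8.26 to 9.65 TPM, with 7 of 8 under that mean.

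In every comparison a gene was called changed at an edgeR quasi-likelihood adjusted p under 0.05 (Benjamini-Hochberg) with an absolute log2 fold change over 1. In d3con against d0con, 7 of the 9 genes could be tested and 3 were called (Shh and Smo higher, Gli1 lower), where 35.2% of all tested genes were called, 20.6% as higher and 14.6% as lower. In d3ko against d0ko, 6 were tested and 2 were called (Smo higher, Gli1 lower), against 17.3% of all genes, 11.6% higher and 5.72% lower. In d3ko against d3con, 7 were tested and 2 were called (Gli1 higher, Shh lower), against 8.26% of all genes, 4.75% higher and 3.51% lower. In d2-FVFp against d2-FVFn, 7 were tested and Shh alone was called, against 8.43% of all genes, 6.96% higher and 1.47% lower. These counts rest on 6 or 7 genes each and are set beside the shares of all genes without a test. Ihh and Dhh were below the limit for testing, 1 CPM (count scaled to the library total) in at least 2 libraries, in both fits. Shh passed that limit only through d3con and through d2-FVFp, the groups in which it was highest, and so had to differ. Without Shh, 2 genes were called in d3con against d0con, 1 in d3ko against d3con and 0 in d2-FVFp against d2-FVFn.

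**Figure D1:**
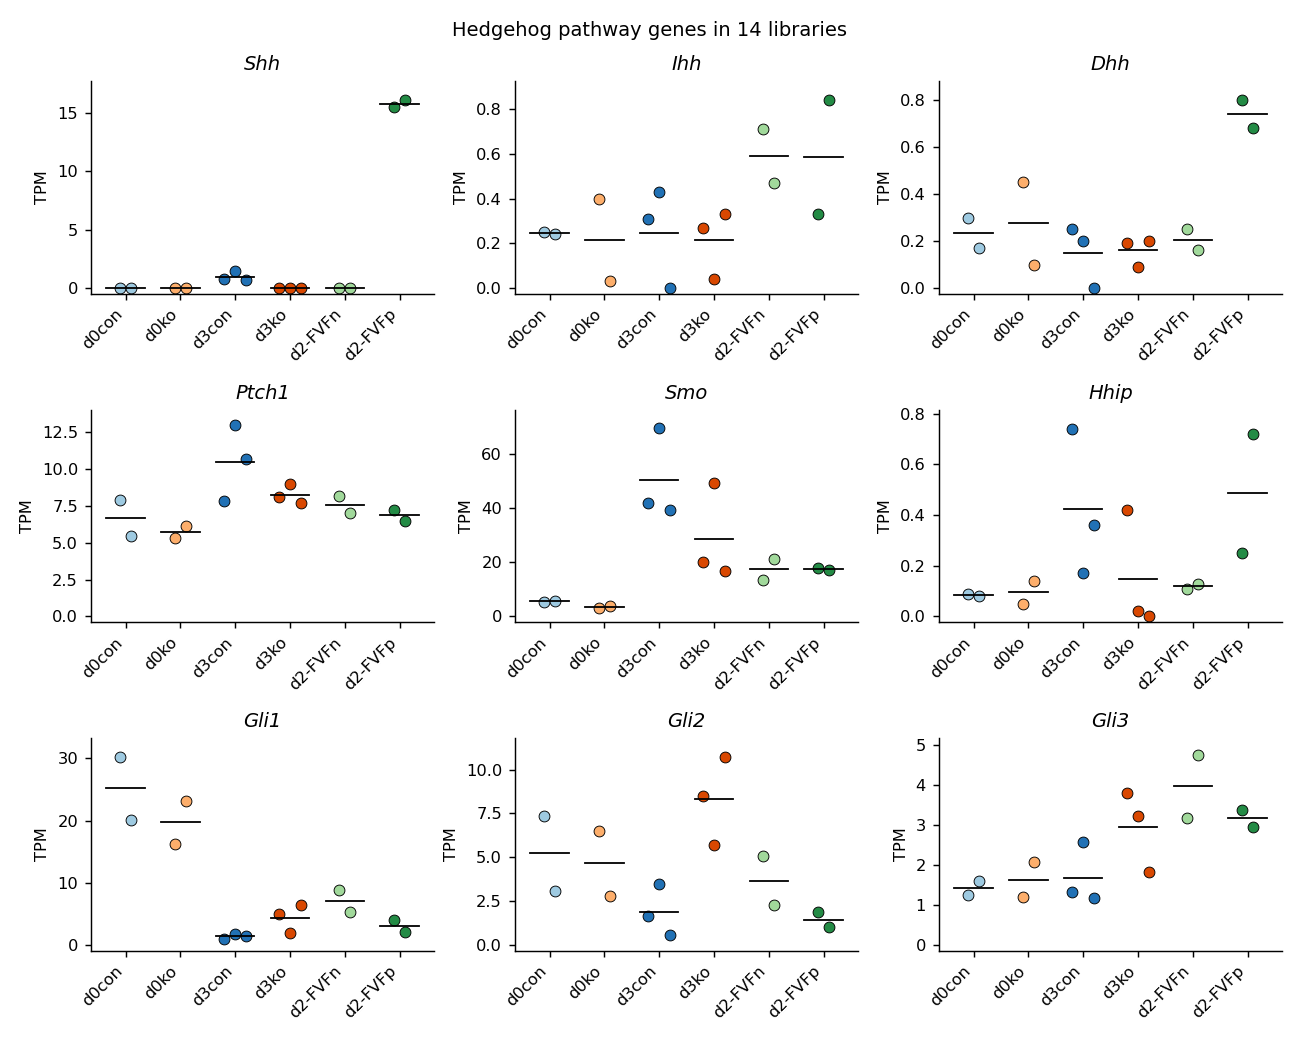
Level in TPM (y axis, linear, from 0) of the 9 genes in each library (points) of the 6 groups (x axis), with the group mean as a line. Shh is near 16 TPM in both d2-FVFp libraries and at most 1.46 TPM elsewhere, Smo is highest at day 3, and Gli1 is highest at day 0.

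Shh (chromosome 5, 28456840 to 28467101, minus strand, GRCm38.p6, protein-coding) encodes the ligand of the notochord and floor plate. It had no count in any d0con, d0ko or d3ko library. The d3con libraries held 0.76, 1.46 and 0.69 TPM (24, 41 and 23 counts), all above every day 0 and d3ko library. A group at 0 was taken at a limit of 3 counts over the whole group. Against that limit the total of 88 counts in d3con was 17.8-fold higher than d0con and 28.1-fold higher than d3ko. These folds leave out the error and spread of the d3con counts. A count of 0 allows up to 0.11 to 0.189 CPM per d3ko library, counting error only. The edgeR adjusted p was 0.00763 for d3con against d0con and 0.0207 for d3ko against d3con. Shh entered this fit only through the d3con libraries, so these calls are given as a description of the counts and lend them no further support. The second call was lost in 5 of 15 alternatives, with adjusted p from 0.00314 to 0.123. These included the fit of only the 6 d3con and d3ko libraries and the fit without d3con replicate 3.

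In the doxycycline line Shh was at 15.50 and 16.09 TPM in d2-FVFp and at 0 and 0.04 TPM (a single count) in d2-FVFn. The 2 groups were far apart, with 682 summed counts against 1, a ratio of 824 (exact 95% interval 147 to 32590, counting error only). The edgeR adjusted p was 0.000274, again a description, since Shh exceeded 1 CPM only in the d2-FVFp libraries (21.7 and 22.2 CPM). It fell under the limit for testing when either d2-FVFp library was left out, since a single library then exceeded 1 CPM. The d2-FVFp mean of 15.8 ± 0.417 TPM (SD, n = 2) stands beside a d3con mean of 0.97 ± 0.426 TPM (SD, n = 3), while Foxa2 stood at 164 ± 6.19 and 49.3 ± 12.7 TPM. The lines, culture and times differ, so these groups were not compared by a test. Markers of the node, notochord and floor plate, which make Shh in the embryo, summed over 8 genes to 34.6 to 39.4 TPM in d2-FVFp. In d2-FVFn they summed to 8.79 to 12.6 TPM. Foxj1 (means of 19.9 against 1.86 TPM) and Chrd (6.02 against 0.645 TPM) made up most of this difference. Cdh2 (7.82 against 6.23 TPM) and Ntn1 (1.83 against 1.45 TPM) differed less. Noto, T, Nog and Sim1 were under 1 TPM in both d2-FVFp libraries. At day 3 the 8 markers summed to 125 to 300 TPM in d3con and 69 to 290 TPM in d3ko. The day 3 sums consist largely of T and Cdh2, and T, which primitive streak cells also express, averaged 52.5 TPM in d3con and 93.8 TPM in d3ko. Other markers of the list were lower in d3ko along with Shh, with means of 2.79 against 0.0233 TPM for Noto, 12 against 1.2 TPM for Chrd, 22.7 against 3.99 TPM for Foxj1, 4.58 against 2.07 TPM for Nog and 92 against 34 TPM for Cdh2 (d3con first). Libraries of the 2 groups did not overlap for Noto, Chrd and Cdh2, while Ntn1 averaged 14.5 and 12.7 TPM and Sim1 was at or near 0. A part of other cell types in the Shh values was not tested, and in bulk libraries fewer cells of a type and less RNA per cell cannot be told apart.

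The gene 9530036O11Rik lies antisense to Shh and shares 446 exon bases with it in GENCODE. The library kit does not keep strand, so reads in that stretch cannot be assigned to either. It reached at most 0.16 TPM. Of the nearest protein-coding neighbours, Rbm33 (37.6 kb away), Rnf32 and Lmbr1 were not called in any comparison. Cnpy1, 211 kb from Shh, was opposite in sign to Shh at day 3, at -3.53 (log2, SE 0.83, edgeR adjusted p = 0.00696) in d3con against d0con and 4.82 (SE 0.81, adjusted p = 0.0126) in d3ko against d3con. In d2-FVFp against d2-FVFn, where Shh differed most, Cnpy1 was at 0.16 (SE 0.33, edgeR adjusted p = 0.776).

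Ihh (chromosome 1, 74945315 to 74951672, protein-coding like the other 8 genes), the ligand of visceral endoderm and growth-plate cartilage, was low throughout. Group means ran from 0.213 ± 0.153 TPM in d3ko (SD, n = 3) to 0.59 ± 0.17 TPM in d2-FVFn (SD, n = 2), and no single library exceeded 0.84 TPM. Neighbouring groups overlapped at every step of the order, so no order can be read. Visceral endoderm markers summed over 8 genes to 16.3 to 37.2 TPM in d3con, 4.82 to 13.2 TPM in d3ko and 18.9 to 19.6 TPM in d2-FVFp. They summed to 1.21 to 1.27 TPM in d0con, 2.31 to 2.52 TPM in d0ko and 2.92 to 4.18 TPM in d2-FVFn. Rbp4 averaged 16.7 TPM in d3con, 5.43 TPM in d3ko and 11.6 TPM in d2-FVFp, and Hnf4a 6.85 TPM in d3con. Afp was at 0 in all d3con and d3ko libraries.

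Dhh (chromosome 15, 98881615 to 98898562), the ligand of Sertoli and Schwann cells, was below 0.5 TPM in all libraries outside d2-FVFp. In d2-FVFp it was at 0.80 and 0.68 TPM against 0.25 and 0.16 TPM in d2-FVFn, so these groups did not overlap, but it was too low for the test. In GENCODE it shares 546 exon bases with Rhebl1 on the same strand, which lay between 41.18 and 91.69 TPM across the libraries. The count of Dhh is therefore uncertain.

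Ptch1 (chromosome 13, 63508328 to 63573460, minus strand), the ligand receptor and a pathway target, lay between 5.35 and 13.00 TPM in all 14 libraries. Its levels were 7.94 and 5.44 TPM in d0con and 5.35 and 6.17 TPM in d0ko. At day 3 they were 7.85, 13.00 and 10.70 TPM in d3con and 8.10, 8.98 and 7.70 TPM in d3ko. The d2-FVFn libraries held 8.17 and 7.02 TPM and the d2-FVFp libraries 7.24 and 6.49 TPM. Every pair of groups next to each other in order of mean overlapped, from d3con at the top to d0ko at the bottom. Each d3ko library was nevertheless above each d0ko library. The d3con and d0con groups overlapped in TPM (7.85 against 7.94 TPM) but not in CPM (19.8 against 19.3 CPM). The log2 fold changes were 0.44 (SE 0.24, edgeR adjusted p = 0.144) for d3con over d0con and 0.35 (SE 0.24, adjusted p = 0.28) for d3ko over d0ko. Those of d3ko over d3con (-0.34, SE 0.21) and d2-FVFp over d2-FVFn (-0.19, SE 0.20) did not pass either, with edgeR adjusted p of 0.325 and 0.527. In d2-FVFp, where Shh transcript was highest, Ptch1 was within the range of the other groups. Pathway activity was not tested.

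Smo (chromosome 6, 29735497 to 29761366, plus strand) encodes the membrane protein that Ptch1 restrains. It was at 5.46 and 5.63 TPM in d0con and at 3.21 and 3.84 TPM in d0ko. At day 3 it stood at 41.74, 69.31 and 39.37 TPM in d3con and at 20.15, 49.10 and 16.74 TPM in d3ko. Every day 3 library was above every day 0 library, and the 2 day 3 genotypes overlapped through d3ko replicate 2. Smo rose by 2.97 in d3con (log2, SE 0.48, edgeR adjusted p = 0.00122) and by 2.85 in d3ko (SE 0.48, adjusted p = 0.00373). The interaction of genotype and day was -0.12 (SE 0.61, edgeR adjusted p = 0.962). The rise in d3ko was no longer called without d0ko replicate 1 (2.74, adjusted p = 0.0516). In d3ko against d3con the change was -0.82 (SE 0.38, edgeR adjusted p = 0.192), and without d3ko replicate 2 it was -1.43 and was called.

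In the doxycycline line Smo was at 13.50 and 21.26 TPM in d2-FVFn and at 17.74 and 17.16 TPM in d2-FVFp, with d2-FVFp inside the range of d2-FVFn. The log2 fold change was -0.04 (SE 0.22, edgeR adjusted p = 0.912). Its neighbours on chromosome 6 were mixed. Ahcyl2, 7.01 kb away, was at 0.99 (log2, SE 0.21, edgeR adjusted p = 0.00419) in d3con against d0con. In d3ko against d0ko it was at 0.80 (SE 0.21, edgeR adjusted p = 0.0186). It did not reach a log2 fold change of 1 in any comparison and so was not called. Tspan33, 16.9 kb away, was higher in d3con than in d0con by 2.16 (log2, SE 0.53, edgeR adjusted p = 0.00861), while Tnpo3 was not called and Strip2 was not called in the doxycycline fit, the only one in which it could be tested.

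The ratio of Smo to Ptch1 in TPM was 0.859 ± 0.242 (SD, n = 2) in d0con and 0.611 ± 0.0156 (SD, n = 2) in d0ko, so the transcript of the receptor was on average above that of Smo. In d3con it was 4.78 ± 0.95 (SD, n = 3) and in d3ko 3.38 ± 1.82 (SD, n = 3). No day 3 library overlapped the day 0 libraries, but 2 against 3 libraries cannot reach an exact permutation p below 0.2, and that was the two-sided value for both genotypes (0.267 after Benjamini-Hochberg adjustment over 12 comparisons of ratios and shares).

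Hhip (chromosome 8, 79965850 to 80058060, minus strand), the ligand-binding antagonist, was under 1 TPM in every library. It was at 0.74, 0.17 and 0.36 TPM in d3con and at 0.42, 0.02 and 0 TPM in d3ko, which overlap. In d2-FVFp it was at 0.25 and 0.72 TPM against 0.11 and 0.13 TPM in d2-FVFn, without overlap. The log2 fold change of 1.97 there (SE 0.62) had an edgeR adjusted p of 0.0687. Hhip exceeded 1 CPM there only in the d2-FVFp libraries (1.2 and 3.44 CPM), so this test is a description. It was called with the replicate number as a block and when low genes were kept, with adjusted p over the alternatives from 0.00338 to 1.

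**Figure D2:**
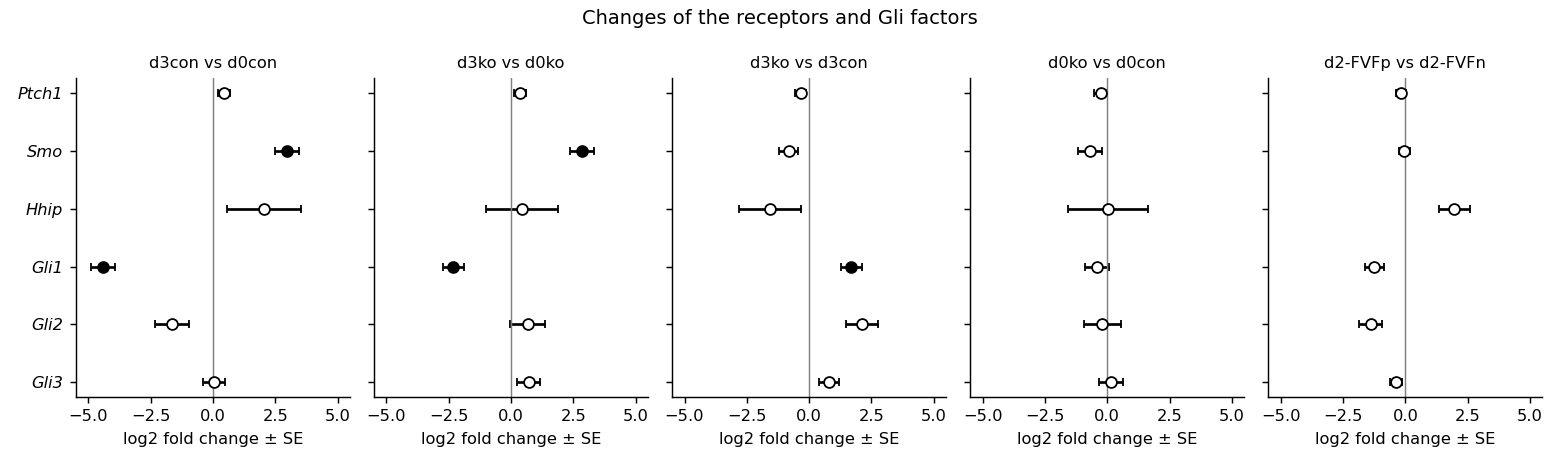
Log2 fold change with its standard error (x axis) of the 6 receptor and Gli genes (y axis) in 5 comparisons. Filled points passed the test and open points did not. Smo and Gli1 are filled in both day comparisons in opposite directions, and no gene is filled in d0ko against d0con or in d2-FVFp against d2-FVFn. Shh is not drawn because its fitted changes are against groups with no or a single count.

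Gli1 (chromosome 10, 127329882 to 127341579, minus strand), the activator whose own transcription serves as a readout of the pathway, was highest in the 2 day 0 groups. It was at 30.24 and 20.14 TPM in d0con and at 16.27 and 23.11 TPM in d0ko. At day 3 it fell to 0.99, 1.72 and 1.41 TPM in d3con and to 4.96, 1.87 and 6.37 TPM in d3ko. Each day 3 library was below each day 0 library, and the lowest d3ko library, replicate 2, was just above the highest d3con library. Gli1 fell by 4.40 in d3con (log2, SE 0.48, edgeR adjusted p = 0.00029) and by 2.31 in d3ko (SE 0.44, adjusted p = 0.00623). The second call was lost without d0ko replicate 2 (-2.07, adjusted p = 0.0509) and with DESeq2 against a 2-fold change (adjusted p = 0.0799).

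Gli1 was higher in d3ko than in d3con by 1.69 (log2, SE 0.42, edgeR adjusted p = 0.0357). This call was lost in 13 of 19 alternatives, though the change kept its direction at 1.33 to 2.06, with adjusted p from 0.00108 to 1. Among these were the fit of only these 2 groups, the sum of the libraries of a clone, and the fit with the replicate number as a block. Leaving out any day 0 library, d3con replicate 1 or 3, or d3ko replicate 1 or 3 also lost it. The interaction of genotype and day, 2.09 (SE 0.64), had an edgeR adjusted p of 0.226. It was called by DESeq2 (adjusted p = 0.00818) and without d3ko replicate 2.

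The pluripotency markers moved with Gli1. The d3ko library with the fewest of them, replicate 2, also had the least Gli1, and the d3con libraries were lowest in both. The d3ko replicates 1 and 3 had pluripotency sums, mostly Dppa5a, in or above the day 0 range and Gli1 below all 4 day 0 libraries. Pou5f1 was at most 943.71 TPM in d3ko against at least 1335.26 TPM at day 0. Zfp42 was at most 400.05 TPM in d3ko against at least 481.59 TPM at day 0. The highest d3ko values of Sox2, Nanog, Klf4, Esrrb and Tfcp2l1 were in or above their day 0 ranges. The part of remaining stem cells in the Gli1 difference was not tested.

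**Figure D3:**
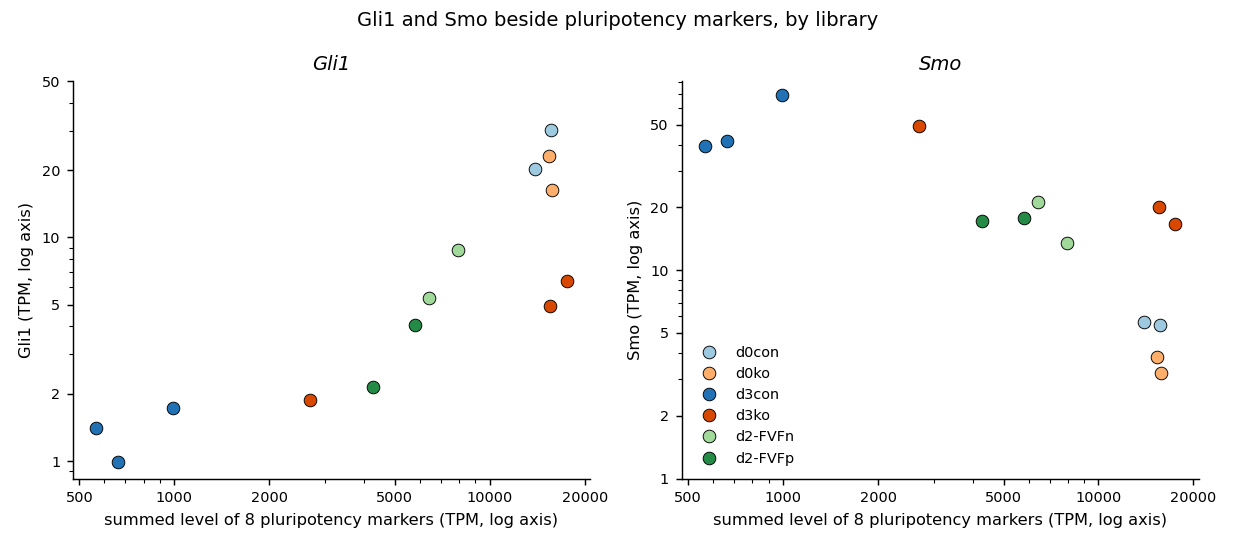
Summed TPM of 8 pluripotency markers (x axis, log) against the TPM of Gli1 (left) and Smo (right; y axes, log), 1 point for each library, coloured by group. The d3ko libraries with 15550 and 17520 TPM of markers hold 4.96 and 6.37 TPM of Gli1, below all day 0 libraries at a like marker sum, and hold more Smo than these. At day 0 and in d3ko the sums are mostly Dppa5a.

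In the doxycycline line Gli1 was at 8.82 and 5.35 TPM in d2-FVFn and at 4.06 and 2.15 TPM in d2-FVFp, without overlap. The log2 fold change was -1.24 (SE 0.37, edgeR adjusted p = 0.0614). It was called in 4 of 11 alternatives, among them DESeq2 and the fit with a replicate block, and adjusted p ran from 2.4e-06 to 1. Gli1 was not higher in d2-FVFp, the group with the most Shh transcript. Among the other target genes given here, Foxl1 and Ccnd2 were called as higher there than in d2-FVFn and Ccnd1 as lower. Hhip and Nkx2-9 (log2 fold change 1.25, SE 0.36, edgeR adjusted p = 0.055) were higher without being called. Mycn was lower without being called (-0.79, SE 0.20, edgeR adjusted p = 0.0367). Olig2 (-0.17, SE 0.27) and Rab34 (-0.01, SE 0.19) differed little. Hhip and Foxl1 could be tested only through the d2-FVFp libraries and so had to be higher. Whether the pathway was active was not tested. Pluripotency markers summed to 4259 to 5795 TPM in d2-FVFp and to 6410 to 7949 TPM in d2-FVFn.

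Arhgap9 lies on the opposite strand and shares 62 exon bases with the end of Gli1. Its levels moved in parallel, at -3.55 (log2, SE 0.48, edgeR adjusted p = 0.000589) in d3con against d0con and 2.12 (SE 0.44, adjusted p = 0.0211) in d3ko against d3con. Since strand was not kept, reads in those bases cannot be told apart. Of the next neighbours, Inhbc (14.7 kb away) was lower in d3con than in d0con (-4.79, SE 1.10, edgeR adjusted p = 0.0064), and Ddit3 (33.6 kb away) was higher in d3ko than in d3con (1.94, SE 0.42, adjusted p = 0.0227). Mbd6 was not called, and Inhbe was below the limit for testing.

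Gli2 (chromosome 1, 118834061 to 119054405, minus strand), the main primary activator, was at 7.37 and 3.09 TPM in d0con and at 6.52 and 2.81 TPM in d0ko. At day 3 it was at 1.67, 3.47 and 0.55 TPM in d3con and at 8.48, 5.72 and 10.73 TPM in d3ko. Every d3ko library was above every d3con library, and both overlapped the widely spread day 0 values. The difference of 2.13 between d3ko and d3con (log2, SE 0.64) had an edgeR adjusted p of 0.0644 and did not pass. It passed in 4 of 19 alternatives, which were DESeq2, no filter on low counts, and the fits without d3con replicate 2 or without d3ko replicate 2. The changes with day were -1.66 (SE 0.68, edgeR adjusted p = 0.0656) in d3con and 0.66 (SE 0.69, adjusted p = 0.492) in d3ko, and their difference of 2.33 (SE 0.98) had an adjusted p of 0.349.

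In the doxycycline line Gli2 was at 5.05 and 2.25 TPM in d2-FVFn and at 1.89 and 1.0 TPM in d2-FVFp. These groups did not overlap, but the log2 fold change of -1.39 (SE 0.45) missed the threshold, with an edgeR adjusted p of 0.0755. It was called in 5 of 11 alternatives, with adjusted p from 1.21e-06 to 1. The lowest was that of the fit with a replicate block, which called Gli2 at -1.36.

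Gli3 (chromosome 13, 15463723 to 15730026, plus strand), the main source of repressor, was low and was not called in any comparison. It was at 1.24 and 1.60 TPM in d0con, 1.19 and 2.06 TPM in d0ko, 1.31, 2.58 and 1.16 TPM in d3con and 3.78, 3.23 and 1.83 TPM in d3ko. The d2-FVFn libraries held 3.17 and 4.74 TPM and the d2-FVFp libraries 3.36 and 2.95 TPM. All groups next to each other in order of mean overlapped. Log2 fold changes ran from -0.38 (SE 0.24, edgeR adjusted p = 0.316) in d2-FVFp against d2-FVFn to 0.81 (SE 0.40, adjusted p = 0.221) in d3ko against d3con.

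**Figure D4:**
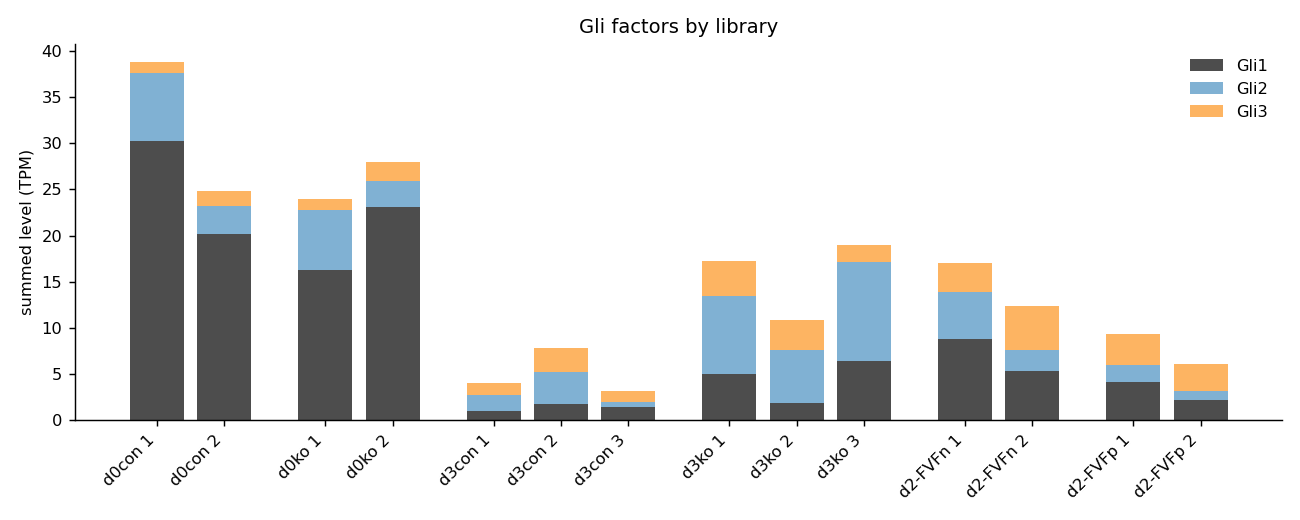
Summed level in TPM (y axis, linear, from 0) of Gli1, Gli2 and Gli3, stacked for each library (x axis, group and replicate). Day 0 libraries are mostly Gli1, d3con libraries are low in all 3, and Gli2 is the larger part in d3ko.

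Gli1 took a smaller part of the Gli transcripts in each day 3 library than in any day 0 library. Gli1 made up 77.8% and 81.1% of the summed Gli TPM in d0con and 67.8% and 82.6% in d0ko. At day 3 it made up 24.9%, 22.1% and 45.2% in d3con and 28.8%, 17.3% and 33.7% in d3ko. The 2 genotypes overlapped in this share on both days. The summed level was 4.95 ± 2.48 TPM (SD, n = 3) in d3con and 15.6 ± 4.27 TPM (SD, n = 3) in d3ko, without overlap between libraries, beside 31.9 ± 9.97 TPM (SD, n = 2) in d0con and 26 ± 2.83 TPM (SD, n = 2) in d0ko. Gli2 was 49.2% to 56.7% of the sum in d3ko and 17.6% to 44.7% in d3con, a two-sided exact permutation p of 0.1, the smallest that 3 against 3 allows (0.267 adjusted over the 12 comparisons).

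The comparison of d0ko with d0con showed no called gene among the 6 Hedgehog genes tested, and 0% of all 13899 tested genes were called by edgeR's quasi-likelihood test. Across all genes 195 had an unadjusted p under 0.05, and DESeq2 called 1 gene. The largest absolute change among the tested members was that of Smo, at -0.69 (log2, SE 0.48), which was not called. The interaction of genotype and day was likewise called for 0 of the 6 genes and 0% of all genes. There 1840 genes had an unadjusted p under 0.05, and DESeq2 called 565 genes, Gli1 among them.

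Among the 14 libraries the levels of Smo and Gli1 ran in opposite directions (Pearson r = -0.92 on log2(TPM + 1)), and those of Smo and Ptch1 in the same direction (r = 0.81). Shh showed r = 0.01 with Ptch1 and -0.42 with Gli1. These values describe libraries that share groups, clones and culture, and carry no test. By the same measure over 12934 genes, the genes most like Shh were AW112010 (r = 0.99), Ano1 and Tacr1 (0.96 each), all highest in d2-FVFp. Those most like Smo were AI314180 and Armcx2 (0.98 each) and Sept6 (0.97), and those most like Gli1 were N4bp3 (0.98), Hmces and Lck (0.97 each). Ptch1 was closest to Nek1 (0.90), Zbtb14 (0.89) and Atp6v1g2 (0.88). Gli2 was closest to Gngt2 (0.91), Prune2 and Alpl (0.90 each), and Gli3 to Shroom2 (0.91), Ahi1 (0.89) and Svil (0.88).

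Another 5 lists of pathway genes, 46 genes in all, were examined in the same fits, of which 38 could be tested in each. In d3con against d0con 7 rose and 4 fell, with a median log2 fold change of 0.52 beside 0.07 over all genes, where 20.6% of all tested genes were called as higher and 14.6% as lower. In d3ko against d0ko 6 rose and 1 fell (median 0.31 beside 0.07), where 11.6% of all genes were higher and 5.72% lower. In d3ko against d3con 0 of 38 were called by edgeR (median -0.03 beside 0.02), and in d2-FVFp against d2-FVFn 4 rose and 1 fell (median 0.03 beside 0.01), where 6.96% were higher and 1.47% lower. In d3ko against d3con 8.26% of all genes were called. These shares are the background for each list below, whose small counts are descriptions and not results about the list. At day 0 Hhat was at most 0.43 TPM, Boc 0.35 TPM, Scube2 0.61 TPM and Gas1 0.98 TPM. These genes may therefore have been testable only through day 3 libraries. Nkx2-9, at least 5.31 TPM at day 0 and at most 1.97 TPM at day 3, may have been testable mainly through day 0 libraries. Their day calls are read as descriptions.

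Of the genes for ligand processing and release, 2 of 4 tested rose in both day comparisons and none fell, beside 20.6% and 11.6% of all genes called as higher. Hhat, the enzyme that attaches the lipid to Hedgehog ligands, rose by 2.56 in d3con (log2, SE 0.60, edgeR adjusted p = 0.00666) and by 2.39 in d3ko (SE 0.59, adjusted p = 0.0163). Scube2, a secreted protein that helps release the ligand, rose by 2.78 (SE 0.71, edgeR adjusted p = 0.0102) and 3.03 (SE 0.71, adjusted p = 0.0137). Its relative Scube3 was called in the doxycycline line, at 5.95 and 5.32 TPM in d2-FVFp against 2.41 and 1.61 TPM in d2-FVFn (log2 fold change 1.44, SE 0.31, edgeR adjusted p = 0.0223).

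Of the 4 co-receptors and ligand antagonists, 2 rose and none fell in both day comparisons. Gas1, a membrane-anchored co-receptor, was at 0.50 and 0.40 TPM in d0con and at 14.21, 16.96 and 11.76 TPM in d3con. It was at 0.43 and 0.98 TPM in d0ko and at 21.41, 34.05 and 6.63 TPM in d3ko. The changes were 4.77 (log2, SE 0.74, edgeR adjusted p = 0.00102) and 4.71 (SE 0.71, adjusted p = 0.00259). Boc, another co-receptor, rose by 3.48 (SE 0.66, edgeR adjusted p = 0.00251) and 3.44 (SE 0.64, adjusted p = 0.00568), and was also called in d2-FVFp against d2-FVFn (1.52, SE 0.40, adjusted p = 0.0417). Fibroblast markers, which the feeders express, summed over 10 genes to 15.9 to 17.3 TPM in d0con, 44.8 to 155 TPM in d0ko, 56.3 to 334 TPM in d3con and 123 to 372 TPM in d3ko. The day 3 sums were mostly Col1a1 and Col1a2, with d3con means of 110 and 44.9 TPM. Other markers of the list had another order. Dcn averaged 10.9 TPM in d0ko, 2.76 TPM in d3con and 1.98 TPM in d3ko, and Acta2 12, 12.5 and 1.84 TPM. Replicate 2 of each day 3 group had the most Gas1 and Boc and the lowest sum. The part of feeder RNA in these values was not tested.

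Of the genes for Gli processing and inhibition, 1 of 10 tested rose in both day comparisons and none fell. This was Ulk3, a kinase that phosphorylates Gli proteins, at 1.09 (log2, SE 0.19, edgeR adjusted p = 0.00178) in d3con and 1.20 (SE 0.19, adjusted p = 0.00315) in d3ko. Of the 13 genes for cilium transport, 1 rose and 1 fell in d3con against d0con and none was called in d3ko against d0ko. Ift172, part of the transport complex, was at 1.05 (SE 0.27, edgeR adjusted p = 0.0109). Evc, which binds Smo at the base of the cilium, was at -2.78 (SE 0.54, edgeR adjusted p = 0.0028).

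Of the reported Hedgehog target genes, 7 of 12 could be tested, and 1 rose and 3 fell in d3con against d0con, with a median log2 fold change of -1.05. Nkx2-9, a ventral neural tube factor, was at 7.88 and 5.31 TPM in d0con and at 0.28, 0.08 and 0.59 TPM in d3con (-4.54, SE 0.75, edgeR adjusted p = 0.00133), and Mycn was at -1.29 (SE 0.41, adjusted p = 0.0261). The cyclin gene Ccnd1 was at -1.28 (SE 0.37, edgeR adjusted p = 0.0181). In d3ko against d0ko 1 rose and 1 fell, with Nkx2-9 at -2.83 (SE 0.68, edgeR adjusted p = 0.0145). Foxf2, a forkhead factor of gut mesenchyme, was the gene that rose in both. It had 64 counts in d3con against 1 in d0con, a ratio of 38.9 (exact 95% interval 6.73 to 1559). In d3ko it had 52 counts against 0 in d0ko, 13.7-fold higher with d0ko taken at the limit of 3 counts. The interval covers counting error only, and the d3con libraries were spread over 1.33, 0.20 and 0.75 TPM. The edgeR adjusted p was 0.0226 and 0.0201, but Foxf2 could be tested only through day 3 libraries, where it is high, so these calls are a description.

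In the doxycycline line, 2 reported targets rose and 1 fell. Foxl1, a mesenchymal forkhead factor, had 49 counts in d2-FVFp and 0 in d2-FVFn (edgeR adjusted p = 0.00969). This was 19.7-fold higher with d2-FVFn taken at the limit of 3 counts. It could be tested only through the d2-FVFp libraries, so its call is a description. The cyclin genes moved apart, with Ccnd2 at 2.12 (log2, SE 0.41, edgeR adjusted p = 0.0163) and Ccnd1 at -1.10 (SE 0.16, adjusted p = 0.00682).

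**Figure D5:**
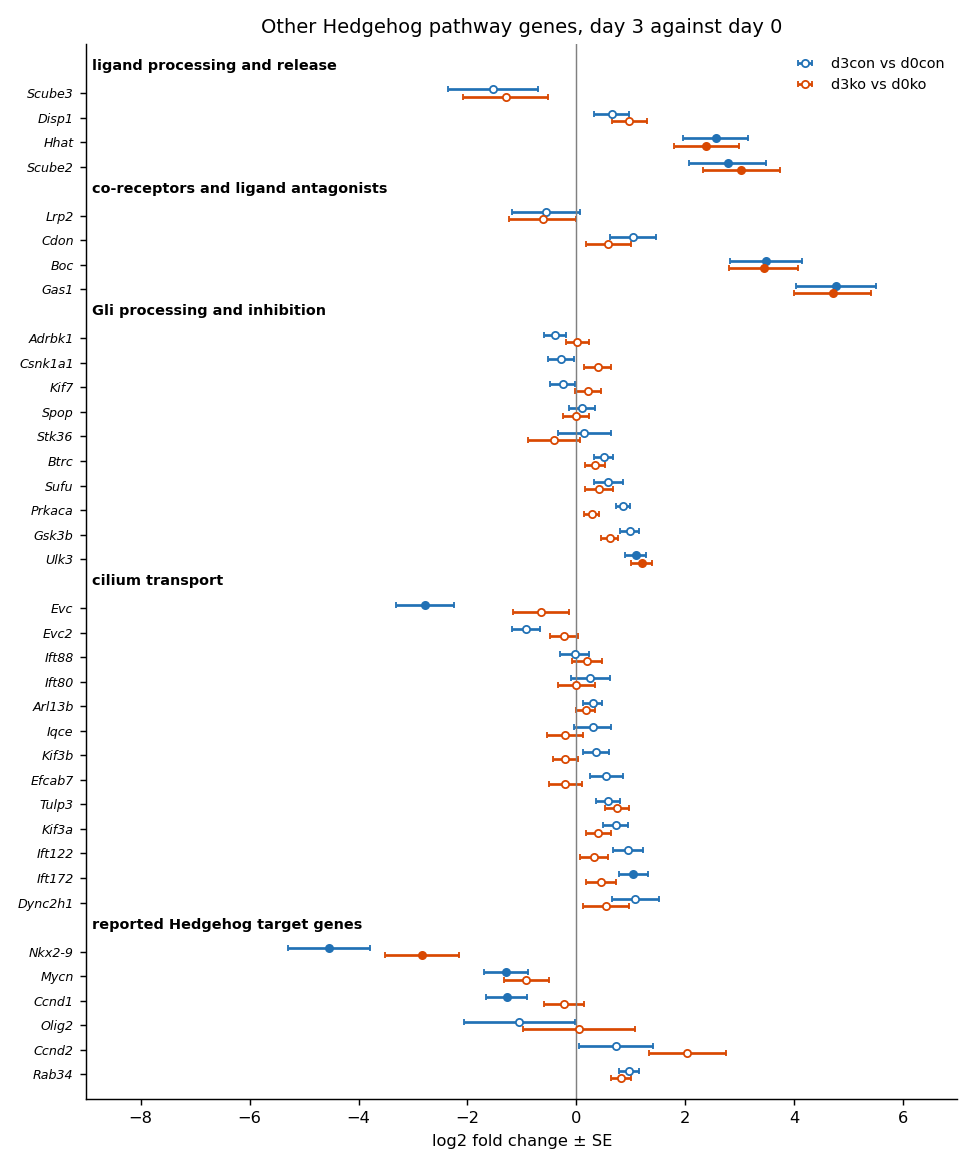
Log2 fold change with its standard error (x axis) of the tested genes of 5 pathway lists (y axis) in d3con against d0con (blue) and d3ko against d0ko (orange). Filled points passed the test. Gas1, Boc, Hhat, Scube2 and Ulk3 are filled to the right and Nkx2-9 to the left in both comparisons. Foxf2 is not drawn because a group was at 0.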

How the data were processed

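The authors sequenced SMART-Seq v4 cDNA, which does not keep strand, aligned single-end reads to mm10 (GRCm38) with STAR and quantified RefSeq genes with RSEM. Versions are not given in the sources used here. The deposited expected counts are RSEM's estimated reads per gene, unscaled, and the deposited TPM values were scaled by the authors for gene length and library total. Effective lengths show 75-base reads in replicate 1 of d3con and d3ko and 50-base reads elsewhere. Fractional counts of the 9 genes departed from whole numbers by at most 0.49.

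Expected counts were rounded, and genes with at least 1 CPM in at least 2 libraries were kept (13899 in the fit of 10 libraries, 12943 in the doxycycline fit). After TMM scaling, edgeR 4.0.16 was used (quasi-likelihood, R 4.3.3, Benjamini-Hochberg over all genes), which was tested on simulated data. Levels are TPM and correlations use log2(TPM + 1). Composition was compared by two-sided exact permutation tests. The genes named were the members, Foxa2, up to 4 called genes without overlap per list and comparison, the 3 most similar genes per member with a group mean of at least 1 TPM, and 2 protein-coding neighbours on either side of each called member, overlapping genes being given apart. The members and lists were chosen with earlier results of these data known. The alternatives were DESeq2 1.42.0 (also against a 2-fold change), other scalings and filters, a replicate block, fits of only the groups compared, and fits without single libraries, longer-read libraries or with clones summed. Positions and promoters are from RefSeq on GRCm38.p6, which matched all 9 genes by position and 7 by promoter. GENCODE gave overlaps. A gene of the pathway lists is not reported here and was left out of their counts.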

Additional observations from a re-analysis of the deposited data

How the results depend on the processing

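Of 639 values of the members under alternative settings, 579 kept their direction and side of the threshold, 22 lost the threshold, 20 gained it and 18 reversed. The number of called Hedgehog genes in d3con against d0con stayed within 1.5 times of 3. In d3ko against d0ko, 2 genes were called, 1 with DESeq2 against a 2-fold change and 1 to 2 when a library was left out. In d3ko against d3con 2 were called, 0 with DESeq2 against a 2-fold change, with only the groups compared, without both longer-read libraries or with clones summed, 1 with a mean count of at least 50, and 0 to 4 when a library was left out (0 without d3con replicate 1 or 3, 4 without d3ko replicate 2). For the interaction 0 were called, 1 with DESeq2 and 0 to 1 when a library was left out. In d2-FVFp against d2-FVFn 1 was called, 3 with DESeq2, 4 without a filter, and 0 to 2 when a library was left out, where Shh fell under the filter without either d2-FVFp library. With the replicate block, 0 were called in d3ko against d3con and 4 in d2-FVFp against d2-FVFn. The deviations of d3con and d3ko libraries with the same number had correlations of 0.526, 0.294 and -0.00585, so the numbers were not taken to pair them. The cause of these changes was not tested. Of the 3 genes most like each member, 1 to 3 were also among its first 3 with a pseudocount of 0.1 or with lower genes allowed.

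The reversals were all of changes that were not called. Without d0con replicate 1 they were Gli3 in d3con against d0con (-0.14) and, in d0ko against d0con, Ptch1 (0.04), Gli2 (0.56) and Gli3 (-0.03). Without d0con replicate 2 they were Hhip in d0ko against d0con (-0.04) and Ptch1 in the interaction (0.16). Without d0ko replicate 2, in d0ko against d0con, they were Gli2 (0.30), Gli3 (-0.27) and Hhip (-0.75). Without d3con replicate 2 they were Gli3 in d3con against d0con (-0.37) and Ptch1 (0.08) and Smo (0.16) in the interaction. Smo in the interaction also reversed without d3ko replicate 1 (0.06) or 3 (0.15), and Smo in d2-FVFp against d2-FVFn without d2-FVFn replicate 2 (0.34). Hhip in d3ko against d0ko reversed with the replicate block (-0.15), without d0ko replicate 1 (-0.07) and without d3ko replicate 1 (-3.35). With a library left out, the other ends of these ranges were 0.27 for Gli3 in d3con against d0con, 1.22 for Hhip in d3ko against d0ko, and, in d0ko against d0con, -0.50 for Ptch1, -0.95 for Gli2, 0.48 for Gli3 and 0.54 for Hhip. In the interaction they were -0.38 for Ptch1 and -0.74 for Smo, and in d2-FVFp against d2-FVFn -0.31 for Smo.

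Calls over all genes ranged from 1 to 2249 around 1148 in d3ko against d3con, from 539 to 2913 around 2408 in d3ko against d0ko, from 2076 to 5189 around 4890 in d3con against d0con, from 233 to 1548 around 1091 in d2-FVFp against d2-FVFn, and from 0 to 1118 in the interaction. Groups of 2 or 3 libraries and counts of Shh, Ihh, Dhh and Hhip near the limit for testing bound what could be detected.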
